A study of Homo sapiens with 6 samples.

Results

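The membrane-type matrix metalloproteinases (MT-MMPs) described here are the genes MMP14, MMP15, MMP16, MMP17 and MMP24, taken by symbol from the deposited table, and all 5 were among its 18539 genes. The series asks how melanoma cells respond to depletion of MMP9, a secreted gelatinase. The cells were A375, an established human line of malignant melanoma with an activating BRAF mutation, and total RNA was sequenced. In the shMMP9 group (3 libraries) the cells carried a pLKO.1 lentiviral hairpin against MMP9, and in the shControl group (3 libraries) a control hairpin, whose sequence the sources used here do not give. Both groups had been infected with lentivirus and selected with puromycin. The knockdown rests on a single hairpin sequence, and the labels do not state whether replicates were separate cultures, so p-values measure the spread between these libraries, which may be technical.

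MT-MMPs are zinc proteases tethered to the cell surface. They are made as inactive proenzymes, are cleaved by furin-like proprotein convertases on the way to the surface, and there cut collagen, fibronectin, laminins and other surface proteins. MMP14 (MT1-MMP), the best known of them, is a collagenase of invading tumour cells that binds the inhibitor TIMP2 and uses that complex to activate pro-MMP2. MMP15 (MT2-MMP), MMP16 (MT3-MMP) and MMP24 (MT5-MMP) also cross the membrane, whereas MMP17 (MT4-MMP) and its relative MMP25 (MT6-MMP) are held by a lipid (GPI) anchor. MMP16 is known from neural and melanocytic cells, and MMP24 chiefly from the nervous system, where it cleaves N-cadherin.

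The members share with the secreted MMP9 a catalytic site in which 3 histidines hold the zinc ion, and its coding sequence is shown. It is given for MMP14, MMP15, MMP17 and MMP24, where it lay in exon 5 in GENCODE release 29 transcripts on GRCh38, and compared with the same site in exon 8 of MMP9. Each line gives 33 bases of the coding strand, 5′ to 3′, with the histidine codons in capitals.
MMP14, chr14:22843283-22843315, plus strand: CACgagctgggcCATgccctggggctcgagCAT
MMP15, chr16:58040563-58040595, plus strand: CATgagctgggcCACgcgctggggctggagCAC
MMP17, chr12:131841659-131841691, plus strand: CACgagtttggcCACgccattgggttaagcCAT
MMP24, chr20:35263817-35263849, plus strand: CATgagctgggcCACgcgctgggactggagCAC
MMP9, chr20:46012453-46012485, plus strand: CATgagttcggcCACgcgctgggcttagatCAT
Of the 33 bases, MMP15 had 28, MMP24 27 and MMP17 23 in common with MMP14, and the secreted MMP9 had 24. Across whole transcripts the longest stretch that any pair of the 5 members had identical was 26 bases, found between MMP24 and MMP14 and between MMP24 and MMP15. How reads that fit several genes were treated is not stated in the labels.

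The hairpin target is shown beside the closest sites in the members, with mismatched bases in capitals. The target lies in exon 4 of MMP9, inside the coding sequence, and the closest sites in MMP14, MMP15 and MMP24 lay in the coding sequence of exon 4 as well.
MMP9, chr20:46010992-46011012, plus strand: cattcagggagacgcccattt
MMP14, chr14:22842653-22842673, plus strand: cattGGAggagacAcccaCtt
MMP15, chr16:58040085-58040105, plus strand: cTttcTggCCCacgccTattt
MMP24, chr20:35254690-35254710, plus strand: GattGGAggagacAcccaCtt
The closest site had 5 mismatches of 21 bases in MMP14, 6 in MMP15, MMP16 and MMP24 and 8 in MMP17. Over 18516 genes of the table with a transcript sequence the median was 8. A site with 5 or fewer mismatches was found in 0.637% of genes, with 6 or fewer in 5.17% and with 8 or fewer in 71.5%. MMP9 had the only full match. Its own level was 16.2, 14.6 and 17.1 in shMMP9 replicates 1 to 3, against 26.1, 24.3 and 28.7 in shControl replicates 1 to 3, as scaled counts (the deposited values on a linear scale, on which all libraries have nearly the same upper quartile). MMP9 transcript therefore stood at 0.605 times the control level, with a log2 fold change of -0.69 (SE 0.0847, limma adjusted p = 1.25e-05).

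Of the 5 members, 3 rose in shMMP9 (MMP14, MMP16 and MMP17), 1 fell (MMP15), and 1 (MMP24) did not pass the test. MMP16 had the largest log2 fold change among them (1.98), followed by MMP17, at 2.26 times the control level, and MMP14, at 1.80 times. MMP15 stood at 0.821 and MMP24 at 0.609 times the control level. A log2 fold change here is the shMMP9 mean minus the shControl mean on the log2(scaled count + 1) scale, where the added 1 shrinks the changes of weak genes. A change counts as called at a Benjamini-Hochberg adjusted p under 0.05 in limma, adjusted over all 17194 genes tested. The calls have to be read against a wide response, since 57.5% of all genes tested were called, 25.0% higher and 32.5% lower in shMMP9. All 5 members passed the filter on low counts. The median log2 fold change of the 5 was 0.84, which is the value of MMP14 alone, beside -0.05 over all genes tested. MMP15 and MMP24 had negative values, so the median does not describe a shift of all members.

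MMP14 (ENSG00000157227.12, chromosome 14, 22836557 to 22849027, plus strand) is the collagenase and pro-MMP2 activator described above. Its scaled count was 255, 238 and 251 in shMMP9 replicates 1 to 3, against 128, 149.7 and 136 in shControl replicates 1 to 3. Every shMMP9 library lay above every shControl library, as it did for 27.6% of genes tested. The estimated reads behind these values numbered 6005 to 7598 in shMMP9 and 3597 to 4607 in shControl. The means were 248 ± 8.95 in shMMP9 and 138 ± 10.9 in shControl (SD, n = 3 each), with a log2 fold change of 0.84 (SE 0.0583, limma adjusted p = 4.86e-08). Among genes tested, 95.6% had a lower log2 fold change.

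MMP16 (ENSG00000156103.15, chromosome 8, minus strand), a transmembrane member that also activates pro-MMP2, had scaled counts of 187, 198 and 181 in shMMP9, against 50.4, 44.5 and 46.7 in shControl. The groups lay far apart, with 4905 to 5561 estimated reads in shMMP9 libraries and 1250 to 1413 in shControl libraries. The means were 189 ± 8.65 in shMMP9 and 47.2 ± 2.95 in shControl (SD, n = 3 each), a log2 fold change of 1.98 (SE 0.0570, limma adjusted p = 9.75e-12). MMP16 ranked 84 from the highest of the 17194 log2 fold changes.

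MMP17 (ENSG00000198598.6, chromosome 12, 131828393 to 131851783, plus strand), the GPI-anchored member, stood at 22.0, 18.5 and 25.9 in shMMP9, against 9.27, 10.5 and 9.63 in shControl. All shMMP9 libraries were above all shControl libraries, and the shMMP9 libraries differed more among themselves (SD 3.71) than the shControl libraries did (SD 0.632). The log2 fold change was 1.09 (SE 0.1100, limma adjusted p = 1.98e-06). Rises of at least 1 on the log2 scale, as in MMP16 and MMP17, were called for 3.22% of genes tested.

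MMP15 (ENSG00000102996.4, chromosome 16, 58025566 to 58046901, plus strand), the transmembrane member with most zinc site bases in common with MMP14 among those shown, had scaled counts of 15.7, 14.9 and 17.3 in shMMP9, against 17.5, 20.6 and 20.2 in shControl. The groups did not overlap, as for 35.1% of genes tested in that direction, but the highest shMMP9 and the lowest shControl library were close together. The means were 15.9 ± 1.19 in shMMP9 and 19.4 ± 1.72 in shControl (SD, n = 3 each). MMP15 fell by 0.27 on the log2 scale (SE 0.0879, limma adjusted p = 0.0185). No member was called with a drop of 1 or more on that scale, as 4.96% of genes tested were. The call ended when any of 4 libraries was left out, namely shMMP9 replicate 1 (adjusted p = 0.0599), shMMP9 replicate 2 (0.0744), shControl replicate 2 (0.0694) or shControl replicate 3 (0.0727). It also ended with median-of-ratios scaling (adjusted p = 0.0567).

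MMP24 (ENSG00000125966.9, chromosome 20, 35226654 to 35277000, plus strand) was the weakest member. It stood at 1.08, 0.482 and 0.563 in shMMP9, from 32.3, 12.2 and 15.2 estimated reads, against 1.16, 1.25 and 1.09 in shControl, from 32.5, 38.4 and 29.2 estimated reads. The highest shMMP9 library reached almost to the lowest shControl library. The log2 fold change was -0.36 (95% interval -0.67 to -0.04, limma adjusted p = 0.0525), and its size depended on the pseudocount, at -0.61 with a pseudocount of 0.25, -0.14 with one of 4 and -0.76 with limma-voom. Without shMMP9 replicate 1 the change was -0.51 and passed the test (adjusted p = 0.0108), and without a variance trend it passed narrowly (adjusted p = 0.0480). MMP24 lies within MMP24OS (chromosome 20, 35201745 to 35278131), a gene on the opposite strand. MMP24OS had 39.0 ± 3.17 scaled counts in shMMP9 and 69.0 ± 4.08 in shControl (SD, n = 3 each), and fell by 0.81 on the log2 scale (SE 0.0672, limma adjusted p = 3.00e-07). AL121753.2 (35262727 to 35264187), also on the opposite strand, overlaps MMP24 as well. It had 1.46 ± 0.257 in shMMP9 and 1.75 ± 0.262 in shControl, with a log2 fold change of -0.16 (limma adjusted p = 0.329). The labels state no strand setting for the counting, and the estimated reads of MMP24 were not whole numbers. Reads of these overlapping genes therefore cannot be told apart.

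**Figure D1:**
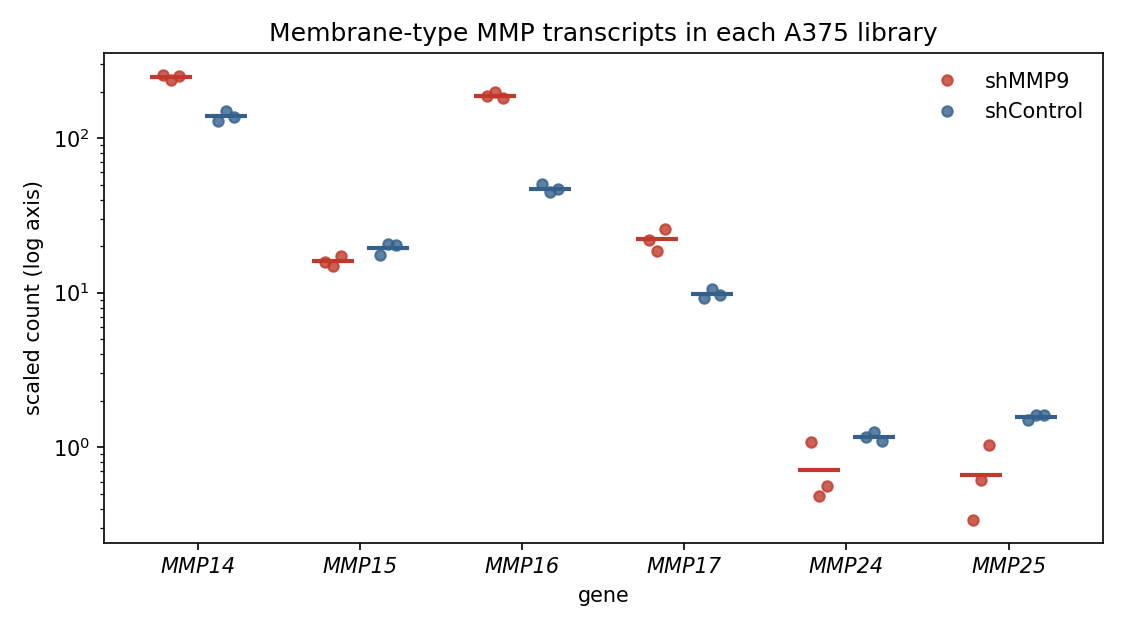
Scaled count (log axis) of the 5 members and of MMP25 in every library, shMMP9 in red and shControl in blue, with points for libraries and bars for the means of 3. MMP14, MMP16 and MMP17 lie higher in all shMMP9 libraries, MMP15 slightly lower, and MMP24 and MMP25 are near 1 scaled count or below.

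**Figure D2:**
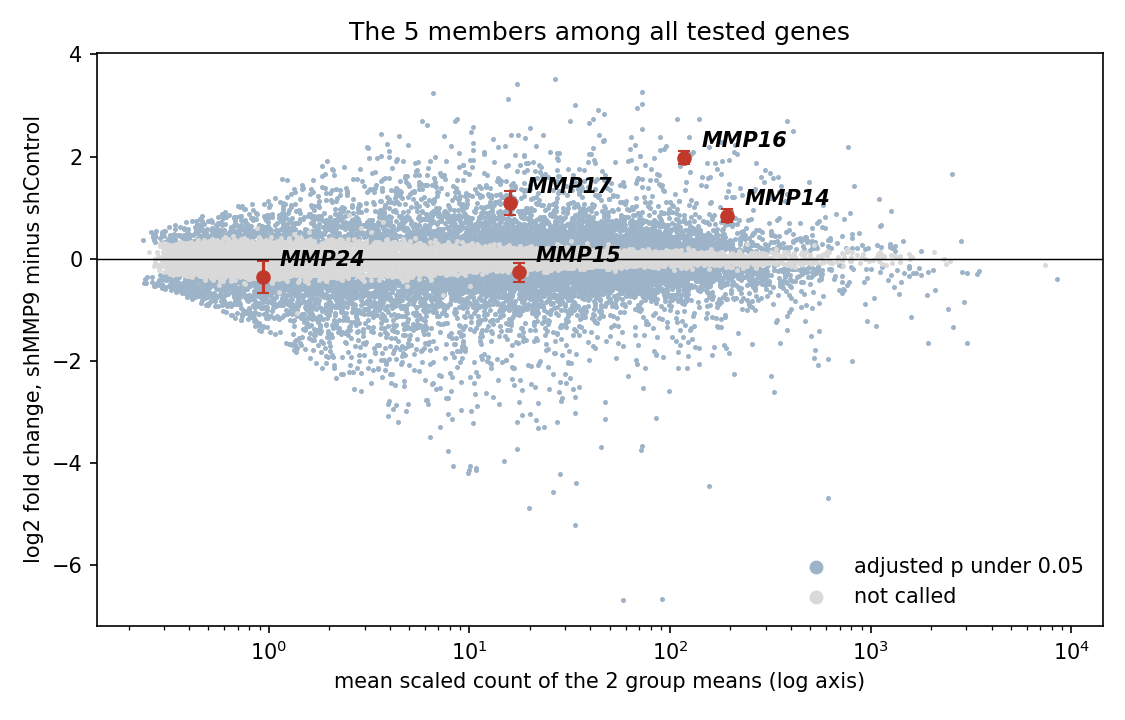
Log2 fold change (shMMP9 minus shControl) against mean scaled count (log axis) for the 17194 genes tested, with blue for adjusted p under 0.05 and grey for genes not called. The members are in red with 95% intervals, with MMP16 at 1.98, MMP17 at 1.09 and MMP14 at 0.84 above 0, and MMP15 at -0.27 and MMP24 at -0.36 below.

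Levels of different genes were compared per kb of merged exons. MMP14 led in both groups, with 55.6 ± 2.01 scaled counts per kb in shMMP9 and 30.9 ± 2.43 in shControl (SD, n = 3 each). In shMMP9 the order below it was MMP16 (15.6 ± 0.714), MMP17 (5.54 ± 0.927), MMP15 (3.61 ± 0.270) and MMP24 (0.161 ± 0.0741), and no libraries of neighbouring genes overlapped. In shControl the order was MMP15 (4.40 ± 0.389), MMP16 (3.89 ± 0.244), MMP17 (2.45 ± 0.158) and MMP24 (0.264 ± 0.0177), where the libraries of MMP15 and MMP16 overlapped, so that their order is not resolved. With the length of the longest transcript in place of merged exons, MMP17 had 9.19 in shMMP9 and 4.06 in shControl, where MMP16 had 4.08.

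Summed per kb, the 5 members reached 81.9, 77.8 and 81.8 in shMMP9 replicates 1 to 3, against 39.4, 44.8 and 41.6 in shControl replicates 1 to 3, a ratio of means of 1.92. MMP14 made up 69.1 ± 0.656% of that sum in shMMP9 and 73.7 ± 1.05% in shControl (SD, n = 3 each). The share of MMP16 was 19.4 ± 1.45% in shMMP9 and 9.34 ± 1.17% in shControl. The share of MMP15 was 4.48 ± 0.252% in shMMP9 and 10.5 ± 0.488% in shControl. These shares describe transcript only, and levels of protein or active enzyme at the surface were not measured.

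**Figure D3:**
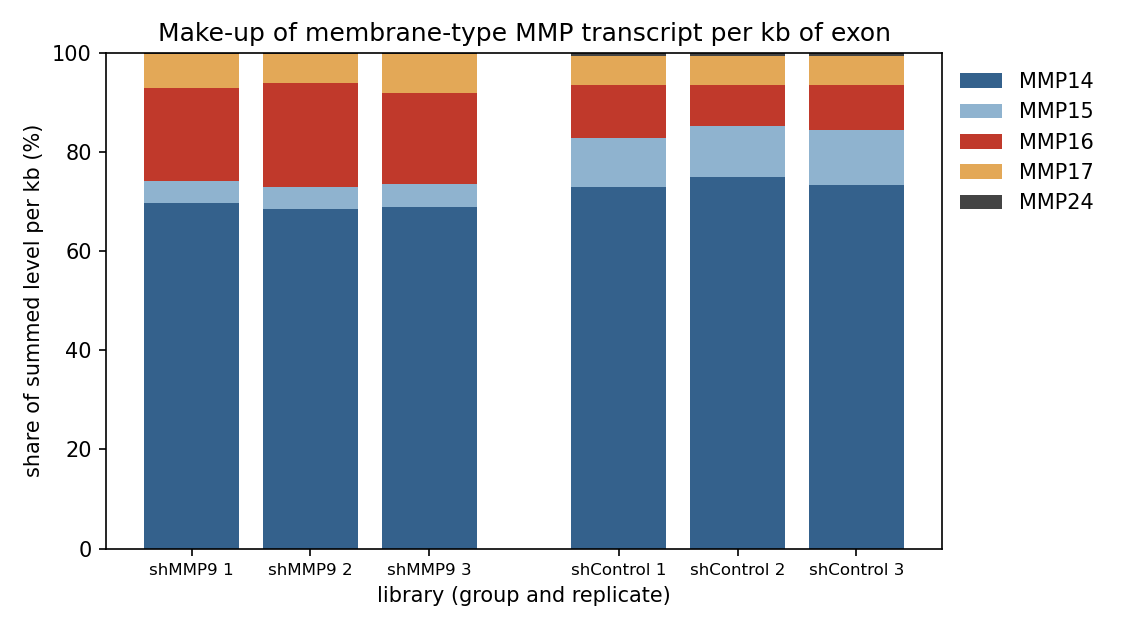
Share (%) of each member in the summed scaled count per kb of exon, 1 bar per library, with shMMP9 libraries left and shControl libraries right. MMP14 takes 68.6 to 74.9% in every library, while MMP16 takes 18.3 to 21.0% in shMMP9 and 8.21 to 10.6% in shControl.

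MMP25 (ENSG00000008516.16, chromosome 16, 3046681 to 3060726), the other GPI-anchored MT-MMP and known from leukocytes, was weakly expressed in both groups. It had 0.337, 0.610 and 1.04 scaled counts in shMMP9, from 10.0 to 28.1 estimated reads, against 1.497, 1.61 and 1.62 in shControl, from 42.0 to 49.4 estimated reads. MMP25 fell by 0.65 on the log2 scale (SE 0.154, limma adjusted p = 0.00264). Its antisense neighbour MMP25-AS1, at 15.6 ± 1.37 in shMMP9 and 14.6 ± 0.614 in shControl (SD, n = 3 each), had a log2 fold change of 0.08 (limma adjusted p = 0.437), and reads of this pair cannot be told apart either.

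Genes around the MT-MMPs were taken from 8 lists by role: convertases, inhibitors, secreted MMPs, surface and matrix substrates, trafficking factors, transcription regulators of MMP14, and MMP25. Of 108 tested, 46 rose (42.6%) and 42 fell (38.9%), beside 25.0% and 32.5% of all genes tested, and their median log2 fold change was 0.04. MMP9, the hairpin target, is counted among the 42. The lists were drawn up with earlier results of these libraries known, and their counts are a description. Counts for each list below are likewise to be read beside 25.0% higher and 32.5% lower over all genes tested.

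The list of proprotein convertases, which is not limited to activators of MT-MMPs, had 5 of 7 tested members rising and none falling. FURIN, the main activator of pro-MMP14, had 249, 248 and 259.7 scaled counts in shMMP9, against 120.2, 141 and 144 in shControl, a log2 fold change of 0.90 (SE 0.0637, limma adjusted p = 6.07e-08). The groups did not overlap for FURIN. PCSK5 and PCSK6, relatives of furin, rose by 1.29 and 1.07 at means of 3.91 and 2.18 in shMMP9, against 0.994 and 0.511 in shControl. PCSK1, a convertase of neuroendocrine cells, rose by 1.69, with 15.1 in shMMP9 and 3.99 in shControl. PCSK7 had 64.8 ± 1.57 in shMMP9 and 58.8 ± 1.68 in shControl, with a log2 fold change of 0.14 (limma adjusted p = 0.0326), a call that ended without shMMP9 replicate 1 (0.102), shMMP9 replicate 3 (0.1004) or shControl replicate 3 (0.107), and without a variance trend (0.0803).

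Among inhibitors, 4 of 10 tested members rose and 5 fell. TIMP3, a matrix-bound inhibitor of MT-MMPs, had 1257 ± 2.54 scaled counts in shMMP9 and 278 ± 19.2 in shControl (SD, n = 3 each), a log2 fold change of 2.18 (limma adjusted p = 3.20e-12). TIMP1, which inhibits MMP9 but acts poorly on MT1-MMP, rose by 1.57, and TFPI2, a Kunitz-type inhibitor, by 1.27. TIMP2 moved the other way, with 128 ± 0.403 in shMMP9 and 221 ± 1.72 in shControl, and fell by 0.78 (SE 0.0431, limma adjusted p = 4.68e-09). RECK, a membrane-anchored inhibitor of MMP14, MMP2 and MMP9, had 5.97 ± 0.525 in shMMP9 and 12.3 ± 0.821 in shControl, and fell by 0.93.

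MMP2, the gelatinase that MMP14 activates with TIMP2, fell by 0.80 (SE 0.0561, limma adjusted p = 5.55e-08), with 199 ± 12.2 scaled counts in shMMP9 and 348 ± 16.9 in shControl (SD, n = 3 each). MMP14 transcript per TIMP2 transcript, both per kb, was 2.52, 2.34 and 2.48 in shMMP9, against 0.737, 0.848 and 0.775 in shControl. MMP14 per MMP2 was 1.42, 1.40 and 1.31 in shMMP9, against 0.432, 0.463 and 0.422 in shControl. Neither ratio overlapped between groups, and the two-sided exact permutation p was 0.1 for each, the smallest that 3 against 3 libraries allow. Of the other secreted MMPs, the stromelysin gene MMP3 fell by 1.60 and the collagenase gene MMP1 rose by 0.83, both at fewer than 6 scaled counts. MMP10, which encodes a further stromelysin and is named here after its values were seen, was called higher, against the direction of MMP3. It stood at 0.882 in shMMP9 and 0.0460 in shControl. In shControl replicates 1 and 3 MMP10 had 0.0356 and 0.0373, the value of 1 estimated read. It passed the filter on low counts through shMMP9 libraries alone, so its control level is not resolved. MMP11 was called lower. Of that list, which includes MMP9 itself, 2 of the 8 tested were not called.

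Surface proteins that MT-MMPs cleave or bind had 5 of 19 tested members rising and 12 falling. TGM2, a transglutaminase that MMP14 cleaves, fell by 1.78, with 237 ± 10.0 scaled counts in shMMP9 and 821 ± 68.7 in shControl (SD, n = 3 each). EPHA2, a receptor kinase cleaved by MMP14, had 258 in shMMP9 and 747 in shControl (log2 fold change -1.52), and ICAM1, an adhesion molecule, had a log2 fold change of -0.81. The integrin gene ITGB3 rose by 1.21, with 266 in shMMP9 and 114 in shControl. Of 13 matrix substrates tested, 4 rose and 8 fell. LAMB3, a chain of laminin-332, fell by 1.57, with 64.1 in shMMP9 and 193 in shControl. COL1A1, a chain of type I collagen, had 3.15 in shMMP9 and 18.4 in shControl (log2 fold change -2.23). AGRN, a heparan sulphate proteoglycan, had 301 in shMMP9 and 806 in shControl (-1.41), while TNC, which encodes tenascin C, rose by 0.87.

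Genes of delivery, uptake and invadopodia had 14 of 32 tested members rising, 7 falling and 11 not called. SH3PXD2A, which encodes the invadopodium scaffold TKS5, rose by 1.25, with 322 ± 5.97 scaled counts in shMMP9 and 135 ± 4.18 in shControl (SD, n = 3 each). ADI1, whose product binds the cytoplasmic tail of MMP14, rose by 1.02. MYO10, a motor of filopodia, fell by 1.30, and CAV1, the caveolar coat gene, by 1.15.

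Transcription factors that have been tied to MMP14 had 12 of 18 tested members rising and 5 falling. EGR1, a zinc finger factor known to act on the MMP14 promoter, rose by 2.73, with 72.8 ± 2.52 scaled counts in shMMP9 and 10.1 ± 0.483 in shControl (SD, n = 3 each). FOSL1 and JUN, subunits of AP-1, fell by 1.40 and 1.98, and ETS1 fell by 1.11. The 222 bases before the GENCODE start of MMP14 are shown because these factors have been tied to this promoter. They were cut from its RefSeq window (GRCh38.p14), with the GC box, the letters GGGCGG bound by SP1 and its relatives, in capitals.
MMP14 upstream, chr14:22836335-22836556, plus strand: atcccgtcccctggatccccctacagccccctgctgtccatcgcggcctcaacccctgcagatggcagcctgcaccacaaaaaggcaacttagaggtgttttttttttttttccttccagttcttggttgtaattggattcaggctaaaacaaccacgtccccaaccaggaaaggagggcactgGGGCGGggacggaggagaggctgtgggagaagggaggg
Promoter windows of 250 bases before to 50 after the start were found in RefSeq for 3 of the 5 members and searched on both strands. The GC box occurred at 1 place in MMP14, 5 in MMP15 and 3 in MMP24, and in 45.0% of all 35116 promoters. The EGR1 letters GCGNGGGCG, which overlap the GC box in part, were at 1 place in MMP24 and in neither MMP14 nor MMP15, and in 9.43% of all promoters. The AP-1 letters TGANTCA were in none of the 3 windows and in 7.71% of all promoters, as were the TEAD letters GGAATG (14.0%) and the E-box CACGTG (7.26%). These counts describe letters in a window and not binding.

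**Figure D4:**
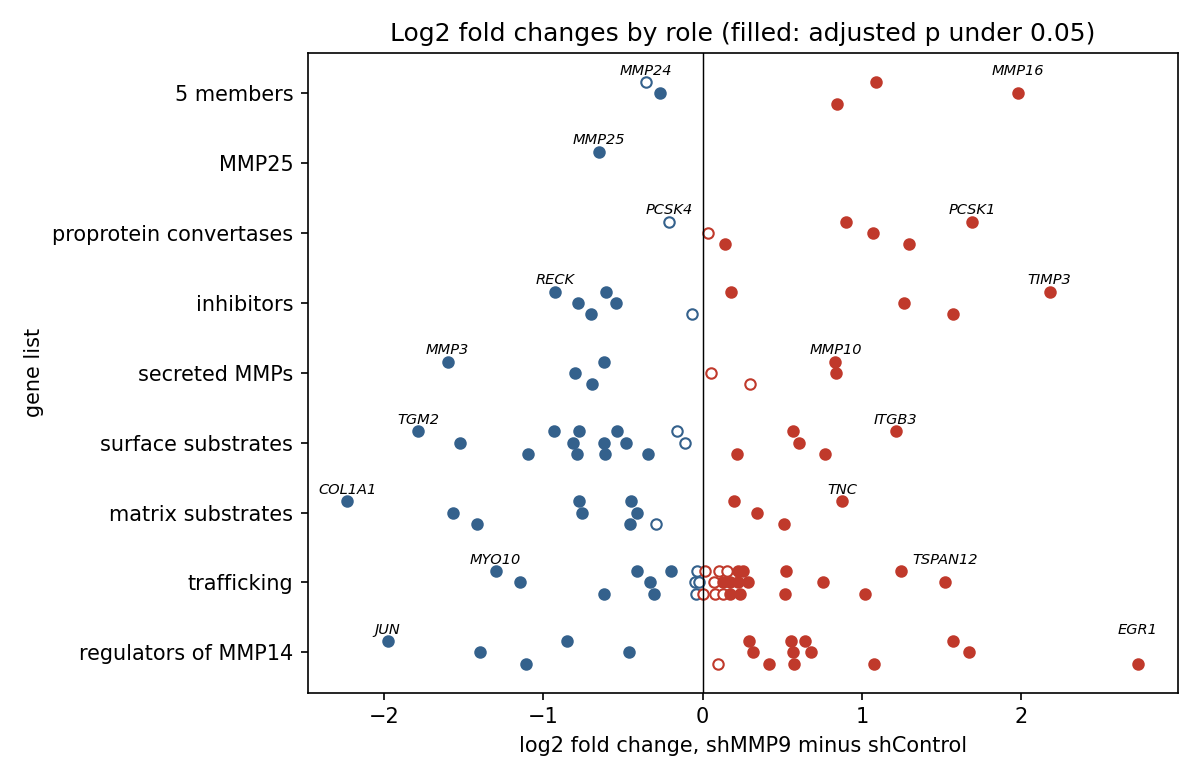
Log2 fold change (shMMP9 minus shControl) of each tested gene by list, with filled points at adjusted p under 0.05, open points not called, red above and blue below 0, and the extreme genes of each list named. Convertases lie mostly above 0 up to PCSK1 at 1.69, and inhibitors split between TIMP3 at 2.18 and RECK at -0.93.

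The nearest genes of the table on either side of MMP14 and MMP17 each had a smaller log2 fold change than that member. MRPL52 and LRP10, on either side of MMP14, had 0.19 and 0.36, and SFSWAP and ULK1, beside MMP17, had -0.14 and 0.24. USB1 and CFAP20, beside MMP15, had -0.28 and 0.13. PROCR and EIF6, beside MMP24, had -0.74 and 0.05. The genes of the table next to MMP16 lie 276 and 1280 kb away and are weak, with log2 fold changes of 0.91 for AF121898.1 and -0.06 for AF117829.1. AF121898.1 averaged 1.10 in shMMP9 and 0.116 in shControl, and the added 1 shrinks its log2 value. Its shControl libraries had 0.143, 0.130 and 0.0747, where 1 estimated read is 0.0356, 0.0325 and 0.0373. It passed the filter on low counts through shMMP9 libraries alone, so its change cannot be ranked beside that of MMP16. The median log2 fold change of all tested genes on the members' chromosomes ran from -0.06 to -0.02.

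Over the 6 libraries, the profiles most like that of each member were sought among genes with a mean scaled count of 5 or more, each centred on its own mean. Those nearest to MMP16 were TSPAN13, KIAA0040 and ERBB3, a neuregulin receptor of neural crest cells, with root mean square differences of 0.05 on the log2 scale for each and log2 fold changes of 1.97, 1.94 and 2.04. Nearest to MMP14 were PIK3R3, ADAM19 and PRDX2 at 0.03, with log2 fold changes of 0.80, 0.86 and 0.80. Nearest to MMP17 were CAVIN3, HPCAL1 and FZD8 at 0.08 to 0.09, nearest to MMP15 were PTPN23, SLC44A2 and HYAL2 at 0.02, and nearest to MMP24 were DNA2, WDR89 and ZNF70 at 0.08. The profiles share the same 2 groups of 3 libraries, so a gene with a like fold change scores as near.

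The libraries held 21854123 to 25895698 estimated reads in shMMP9 and 24319969 to 28005552 in shControl. The melanocytic factor SOX10 had 785 ± 40.6 scaled counts in shMMP9 and 378 ± 18.4 in shControl (SD, n = 3 each), and S100B rose as well (28.1 in shMMP9 and 9.46 in shControl), while MITF fell (27.7 in shMMP9 and 35.5 in shControl). The pigment genes PMEL, MLANA and TYRP1 averaged 1.76 or less in both groups, and TYR and DCT have no value in the files used here. Markers of other cell types, read here in libraries that are all labelled as the A375 line, moved with the groups. Of 7 fibroblast markers tested 1 rose and 6 fell, with summed levels of 27.9 to 30.7 in shMMP9 and 58.4 to 62.2 in shControl, and the fibroblast collagen genes COL1A2 and COL3A1 averaged 0.393 or less in both groups. Endothelial markers summed to 22.1 to 25.7 in shMMP9 and 55.9 to 64.8 in shControl, a sum set by TIE1 (4.56 in shMMP9 and 49.9 in shControl). Against that sum KDR rose (16.1 in shMMP9 and 6.44 in shControl). Keratinocyte markers summed to 137 to 147 in shMMP9 and 83.4 to 94.8 in shControl, mostly from KRT10. Of the 3 tested, KRT10 and KRT14 rose (KRT14 at 19.7 in shMMP9 and 4.04 in shControl). DSC3 fell (11.1 in shMMP9 and 13.6 in shControl). Leukocyte markers summed to 98.9 to 102 in shMMP9 and 115 to 137 in shControl, mostly from CD68, against which LYZ rose (6.83 in shMMP9 and 2.20 in shControl). Mitochondrially encoded genes held 0.62 to 0.71% of reads in shMMP9 and 1.64 to 1.79% in shControl. The part of these differences in the members' changes was not tested, and in bulk RNA fewer cells of a kind cannot be told apart from less RNA per cell.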

How the data were processed

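Total RNA of 6 A375 libraries was sequenced, with groups and replicate numbers taken from the labels. STAR 2.6.1d, Partek and the hg38 build are named per the submitters' processing notes. For the counting method, annotation and strand setting nothing is stated in the sources used here. The authors deposited 1 value per gene and library on a log2 scale, log2(scaled count + 1). Converted to linear values, the libraries share a 75th percentile of 45.3 to 45.4, and 64.6 to 67.7% of values are whole multiples of the smallest, within 0.01, which was taken as 1 read. That smallest value, 0.0325 to 0.0397 over the libraries, is a floor, and no listed gene lies below 1 estimated read in any library. Estimated reads count sampling error only and cover listed genes. Symbols matched GENCODE release 29 for 99.9% of genes, and 23 rows had dates in place of symbols.

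Members and lists were chosen with earlier results of these data known. The values are not raw counts, so limma 3.58.1 in R 4.3.3 was run on the deposited log2 values, with an empirical Bayes variance trend, a pseudocount of 1 and no further scaling. A gene was tested with at least 10 reads, rescaled to median depth, in 3 libraries and 15 over all, which kept 17194 and removed 1345. The test was checked on simulated data. Named genes were the members, MMP9, MMP25, a few set convertases and inhibitors, the up to 4 genes per list lowest in adjusted p, nearest listed neighbours and the 3 closest profiles. Alternatives were leaving out each library, a replicate block, scaling by median of ratios or by total reads, no filter, pseudocounts of 0.25 and 4, limma-voom, no variance trend, a threshold of 0.01, and transcript in place of exon length. Libraries within a group differed by more than sampling noise (chi-square per gene 2.51 to 14.2), so none was treated as a duplicate. Figures were drawn with matplotlib 3.10.9.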

Additional observations from a re-analysis of the deposited data

How the results depend on the processing

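MMP14, MMP16, MMP17 and MMP9 kept their direction and call in all 15 alternatives, with log2 fold changes of 0.79 to 0.90, 1.91 to 2.04, 0.91 to 1.21 and -0.75 to -0.61. MMP15 stayed below 0 but was not called at a threshold of 0.01 (-0.27, adjusted p = 0.0185) or with median-of-ratios scaling (-0.21, adjusted p = 0.0567), nor with 4 of the 6 libraries left out in turn (-0.34 to -0.22 over all 6). MMP24 stayed below 0 and passed without a variance trend (-0.36, adjusted p = 0.0480) and without shMMP9 replicate 1, with -0.51 to -0.26 over the libraries left out in turn. Scaling set the balance of all calls, with 4304 genes higher and 5584 lower as deposited (43.5% higher) and 5013 and 4875 with median-of-ratios scaling (50.7% higher). With the replicate number as a block 4211 genes were higher and 5486 lower, and MMP14, MMP15, MMP16, MMP17 and MMP24 had 0.84, -0.27, 1.98, 1.09 and -0.36 with no call changed among them, while that of PCSK7 ended (adjusted p = 0.0617). Same-numbered libraries did not deviate together (correlations of 0.04, -0.13 and -0.03), but 3 libraries per group cannot settle whether the numbers pair the samples. Pathway genes higher ran from 40 to 52 and lower from 41 to 43. Of 1155 values for 77 other named genes, 1107 kept direction and call. Those that changed sign were not called as reported: PMEL ran from -0.0300 to 0.1104 and AF117829.1 from -0.2178 to 0.0752 over the libraries left out in turn. Depth limits MMP24 and MMP25, which rest on 10.0 to 49.4 estimated reads per library.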
